A study of Mus musculus with 15 samples.

Results

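The induced pluripotent stem (iPS) cell line IP20D-3 was compared with mouse embryonic fibroblasts (MEF) on Affymetrix mouse expression arrays. The comparison was made by array title, and its members were 6 of the 15 arrays of the series, 3 of IP20D-3 and 3 of MEF. All 45037 probe sets that were not array controls were tested, and 18194 genes were each read from their brightest probe set. Per the labels, IP20D-3 is an iPS line of B6D2F1 background, and the MEF are B6D2F1 fibroblasts from which iPS cells had been made. The 9 other arrays supplied a direct test of where IP20D-3 stood among pluripotent lines. They held the B6D2F1 embryonic stem (ES) cell line CL11, the B6D2F1 iPS line IP14D-1 and the C57x129S2 iPS line IP14D-101, with 3 arrays each. ES and iPS cells had been kept with LIF on feeder fibroblasts stopped by mitomycin C, in medium with fetal bovine serum or Knockout serum replacement, and the medium of each line is not stated. The labels name no reprogramming factors, and each line is a single line, so what set IP20D-3 apart is a property of that line's 3 samples. Per the series' design, each group holds 3 biological replicates, but no label says how far apart the cultures were kept, and p-values therefore reflect sample-to-sample spread, part of which may be technical.

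Embryonic fibroblasts are mesenchymal cells that secrete collagen-rich matrix, adhere through integrins and carry a contractile actin cytoskeleton. Pluripotent cells of the mouse instead form compact epithelial colonies, divide rapidly, and are held in self-renewal by a transcription factor circuit around Pou5f1 (Oct4), Sox2 and Nanog, which LIF acting through Stat3 sustains. Reprogramming of a fibroblast therefore involves both the loss of the mesenchymal programme and the gain of the pluripotency circuit, along with a resetting of DNA methylation that also bears on germ line and imprinted genes.

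Levels are log2 of the scaled array signal plus 16, and changes are IP20D-3 minus MEF on that scale. Array trimmed means spanned 11198 to 20466 before scaling. They were 11416 to 11917 in IP20D-3 and 16746 to 20466 in MEF, so array brightness before scaling differed between the groups without overlap. Of all probe sets, 54.2% to 55.1% on the IP20D-3 arrays and 54.4% to 58.0% on the MEF arrays lay above background, which was set at a log2 level of 11.06 by the 95th percentile of 43 olfactory receptor probe sets. Actin probe sets at the 3′ end were brighter than those at the 5′ end, a difference that grows as RNA degrades, by a ratio of 1.25 to 1.30 in IP20D-3 and 1.14 to 1.17 in MEF. The same ratio for Gapdh was 0.791 to 0.801 in IP20D-3 and 0.816 to 0.825 in MEF. The part of RNA quality in the results was not tested. The lowest correlation between arrays of the same group was 0.927 for IP20D-3 and 0.940 for MEF, and no MEF array correlated above 0.813 with an array of another group. For the IP20D-3 arrays the highest correlation with an array of another group was 0.924 to 0.926, close to the lowest within IP20D-3. The labelled cell types matched their defining markers. All 21 measured pluripotency transcription factors lay above background in IP20D-3, against 9 in MEF. All 8 fibroblast markers Col1a1, Col1a2, Col3a1, Thy1, Pdgfrb, Postn, Lum and Dcn lay above background in MEF, against 2 (Col1a2 and Thy1) in IP20D-3.

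Most measured genes differed between IP20D-3 and MEF. By limma with Benjamini-Hochberg adjustment over all probe sets, 19746 probe sets (43.8%) changed at an adjusted p below 0.05. Of the 18194 genes, 9657 (53.1%) changed, 5432 upward (29.9%) and 4225 downward (23.2%), with a median change over all genes of 0.10. A change of at least 2-fold was seen for 3467 genes upward (19.1%) and 2849 downward (15.7%). The 3 arrays of one group did not overlap the 3 of the other for 11013 genes (60.5%), of which IP20D-3 was above MEF for 6040 and below it for 4973. Among the changed genes 56.2% were higher in IP20D-3, but with the values as deposited and no scaling only 31.7% were, and the median of all genes then lay at -0.52. Small changes are therefore relative to this choice of scale. Both groups were above background for 10011 genes, IP20D-3 alone for 1325 and MEF alone for 1233. For genes whose dimmer group lay below background a fold is given as "at least", computed against the background level, and no fold is given where both lay below it.

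**Figure D1:**
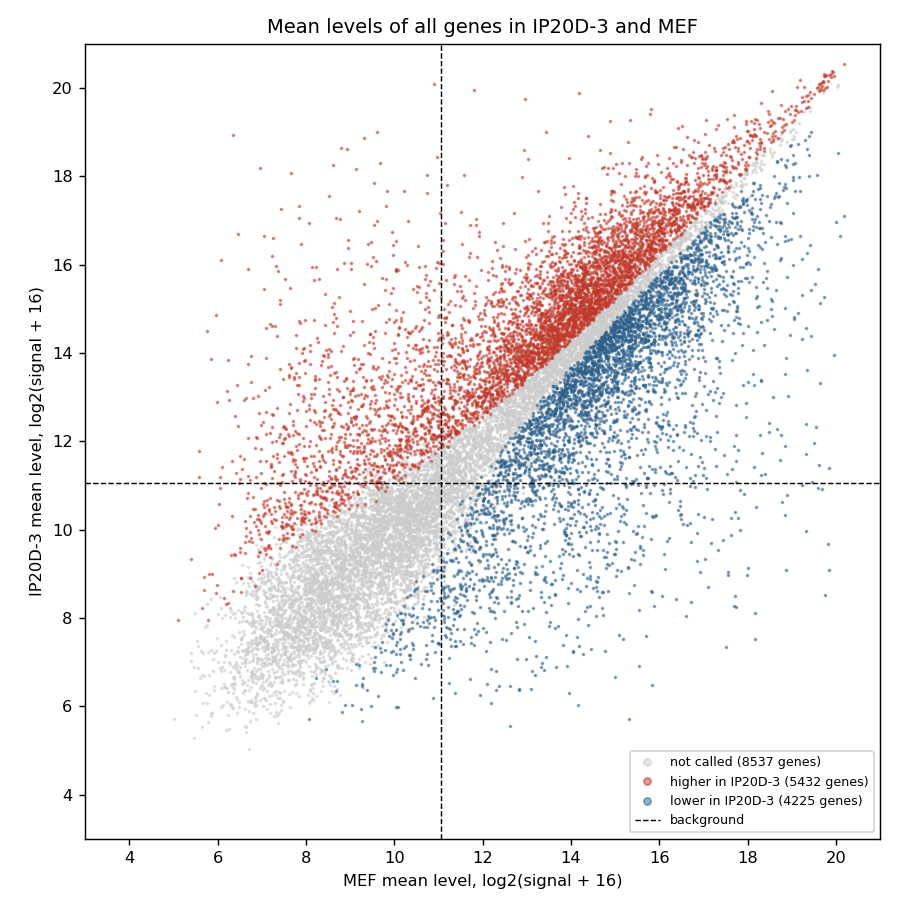
Mean log2 level in IP20D-3 (vertical axis) against MEF (horizontal axis), 3 arrays each, for every gene, with dashed lines at the background level of 11.06. Red points are the 5432 genes higher in IP20D-3, blue points the 4225 lower ones and grey points the rest. Points at the upper left are bright in IP20D-3 and below background in MEF, and those at the lower right the reverse.

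The largest rises and falls, ranked by fitted change, were changes between near-background and very bright signal. Tdgf1 (Cripto, a co-receptor for Nodal) stood at 18.93, 19.01 and 18.84 in IP20D-3, against 6.49, 5.92 and 6.59 in MEF, at least 233-fold higher. The RNA-binding protein gene Lin28a, which blocks maturation of let-7 microRNAs, had 18.26, 18.12 and 18.17 in IP20D-3 and 9.14, 5.05 and 6.66 in MEF, at least 139-fold higher. In both genes every IP20D-3 array was bright and every MEF array below background. The other genes among the 15 largest rises were Sall4, Morc1 (a repressor of transposons in the germ line), L1td1, Epcam, Sox2, Dnmt3l, Fam169a, Pou5f1, Nr0b1, Gsta4, Mymx, Esrp1 and Trap1a, which rose by at least 28.8-fold (Esrp1) to at least 247-fold (Gsta4, a glutathione transferase). Mymx, whose product drives fusion of muscle cells, was at 16.70, 16.45 and 16.69 in IP20D-3 and at 6.33, 6.40 and 9.05 in MEF, at least 46.9-fold higher.

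Matrix genes made up most of the opposite end. Col1a1, the main chain of type I collagen, had 7.27, 9.37 and 8.92 in IP20D-3 and 19.78, 19.87 and 19.58 in MEF, at least 410-fold lower (fitted change -11.22, SE 0.55). Postn, which encodes the matrix protein periostin, had 6.50, 10.40 and 10.34 in IP20D-3 and 19.83, 19.92 and 19.78 in MEF, at least 440-fold lower. In both genes the IP20D-3 arrays lay below background and scattered widely, whereas the MEF arrays lay close together. The remaining 13 of the 15 largest falls were Pdgfrb, Tgfb3, Col3a1, Col8a1, Ccn4, C1qtnf3, Mgp, Nrp1, Medag, Cdh11, Pappa, Aspn and Ccdc80, at least 18.9-fold (C1qtnf3) to at least 432-fold lower (Col3a1). Cdh11, the cadherin of mesenchymal cells, stood at 9.71, 10.17 and 10.05 in IP20D-3, against 19.28, 19.36 and 19.34 in MEF.

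**Figure D2:**
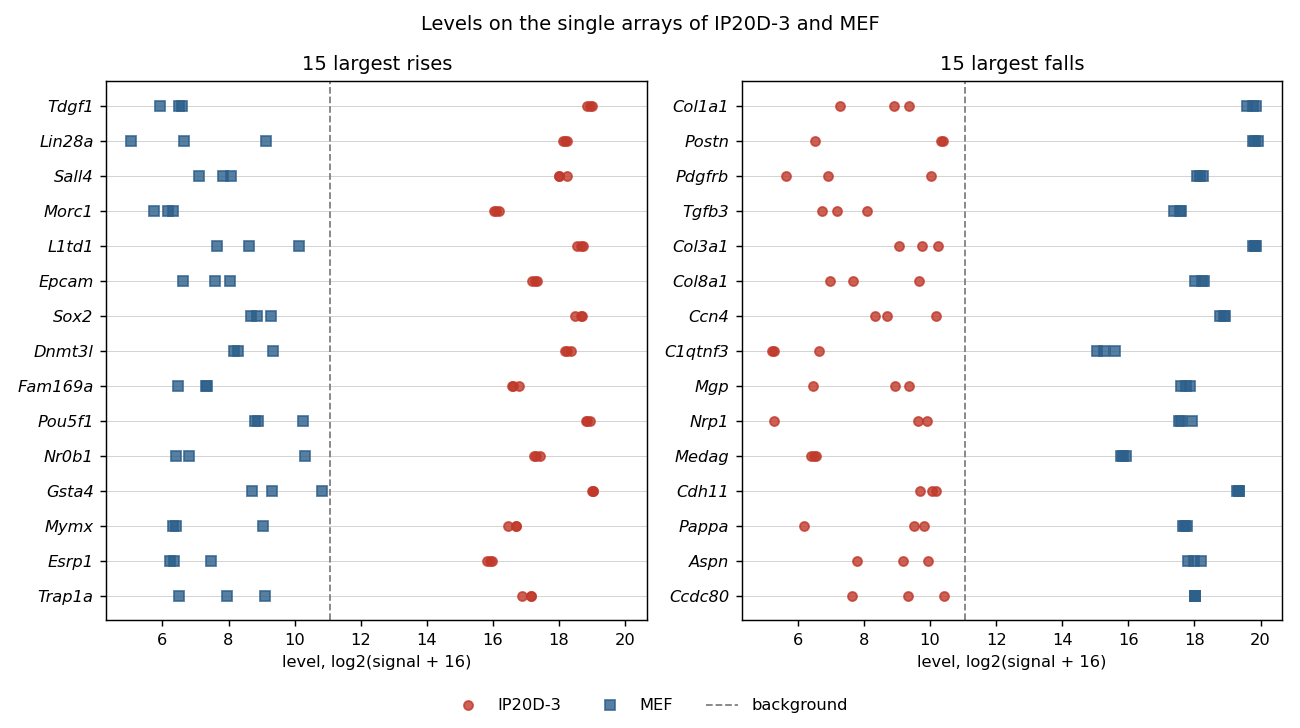
Log2 levels (horizontal axis) on each array of IP20D-3 (red circles) and MEF (blue squares) for the 15 genes with the largest rise (left) and the 15 with the largest fall (right), with a dashed line at the background level of 11.06. Every IP20D-3 point of a risen gene lies above every MEF point, and the reverse holds for the fallen genes.

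The pluripotency transcription factors were uniformly higher in IP20D-3: all 21 measured members of the list rose (median change 5.97, against 0.10 over all genes). Pou5f1, which is required to keep cells pluripotent, had 18.93, 18.82 and 18.84 in IP20D-3 and 8.90, 10.24 and 8.80 in MEF, at least 223-fold higher. Sox2, its partner on DNA, had 18.71, 18.67 and 18.49 in IP20D-3, against 9.27, 8.67 and 8.85 in MEF, at least 188-fold higher. Nanog had 18.41, 18.22 and 18.25 in IP20D-3 and 9.62, 9.28 and 10.11 in MEF, at least 150-fold higher. None of the 3 was above background on any MEF array. Sall4 rose at least 129-fold and the orphan receptor gene Nr0b1 (Dax1) at least 76.8-fold, and Esrrb, Tfcp2l1 and Nr5a2 rose by at least 60.9-fold, 29.6-fold and 9.06-fold.

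Klf4 showed the smallest rise of the list, and it was above background in MEF too. It stood at 17.23, 16.90 and 16.93 in IP20D-3 and 15.79, 15.45 and 15.69 in MEF, 2.6-fold higher (change 1.38, SE 0.10, adjusted p = 1.2e-09). Of the Myc genes, Mycn rose and Myc fell. Mycn had 18.07, 18.07 and 17.99 in IP20D-3 and 10.998, 10.65 and 10.54 in MEF, at least 126-fold higher, while Myc had 13.77, 14.76 and 14.10 in IP20D-3 and 15.08, 15.17 and 15.16 in MEF, 1.9-fold lower (change -0.92, SE 0.18, adjusted p = 0.00024). Across 13 measured members of the Myc family and of nuclear receptors used in reprogramming, 7 rose, 3 fell and 3 did not pass the test (5 and 5 with values unscaled). The share that fell was near the 23.2% of all genes. Mga, a Max partner that represses germ line genes, rose 6.22-fold, and Esrra fell 2.3-fold.

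The Nanog and Tdgf1 promoters are shown because these genes carry the pluripotency result with signal at background in MEF. Sequences are those of RefSeq on GRCm38.p6, from 250 bases before to 50 bases after the annotated start, on the gene's strand. The Nanog promoter (chr6:122707239-122707538, plus strand) held on neither strand the octamer ATGCAAAT or any of the CCAAT box, the TATA motif (TATAAA), the GC box (GGGCGG) and the AP-1 motif (TGANTCA). Capitals mark a match to the composite element read by Oct4 and Sox2 together (TTTGCAT followed by any base and then ACAANG), 75 bases before the start. That form was searched after the sequence had been seen, and 0.0139% of array gene promoters held it. The Tdgf1 promoter (chr9:110946109-110946408, minus strand) held GGGCGG on its reverse strand (capitals) 6 bases before the start, a motif present in 54.1% of array gene promoters.
Nanog: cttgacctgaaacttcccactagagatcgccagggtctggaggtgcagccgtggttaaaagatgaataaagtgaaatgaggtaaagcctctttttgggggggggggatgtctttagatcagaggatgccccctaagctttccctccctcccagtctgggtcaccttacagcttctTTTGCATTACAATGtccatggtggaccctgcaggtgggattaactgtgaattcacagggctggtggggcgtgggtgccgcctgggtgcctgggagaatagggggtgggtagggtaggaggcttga
Tdgf1: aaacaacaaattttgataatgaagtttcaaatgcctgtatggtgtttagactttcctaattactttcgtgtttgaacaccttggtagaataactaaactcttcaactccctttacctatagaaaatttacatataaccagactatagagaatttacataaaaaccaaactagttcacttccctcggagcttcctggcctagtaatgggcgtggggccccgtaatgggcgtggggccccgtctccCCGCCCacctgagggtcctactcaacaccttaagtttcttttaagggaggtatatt

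Signals that ES cells send and receive mostly rose with the circuit. Of 19 measured ES cell secreted factors, receptors and surface genes 16 rose, 2 fell and 1 did not pass the test (median 4.90). Fgf4, the ligand that primes ES cells for differentiation, had 16.52, 16.36 and 16.52 in IP20D-3 and 7.90, 7.84 and 7.91 in MEF, at least 42.3-fold higher. Slc2a3, a glucose transporter, rose 111-fold, and Alpl, the alkaline phosphatase used to stain pluripotent colonies, rose at least 30.0-fold. The 2 members that fell were receptors that fibroblasts also use, Fgfr1 (2.19-fold lower) and Il6st, the signalling chain shared by LIF and interleukin 6 receptors (5.64-fold lower). Il6st stood at 14.55, 14.36 and 14.39 in IP20D-3 and 16.94, 16.93 and 16.93 in MEF, with no overlap.

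LIF pathway genes changed in both directions. Of 17 measured members, 10 rose, 6 fell and 1 did not pass (median 1.38). Below Il6st, the kinase genes Jak1 and Jak2 fell 4.09-fold and 5.51-fold, Stat3 fell 2.2-fold and the ligand gene Lif fell 2.31-fold. The last of the 6, Junb, fell 1.35-fold and no longer passed without MEF replicate 1 or with arrays scaled to the same median. Stat3 had 15.78, 15.66 and 15.48 in IP20D-3 and 16.87, 16.78 and 16.69 in MEF. Among the members that rose were Tfcp2l1, at least 29.6-fold, Pim3 7.17-fold and the feedback inhibitor gene Socs2 6.56-fold. Ctnnal1 rose 43.7-fold.

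Of 24 FGF and ERK pathway genes 14 rose, 6 fell and 4 did not pass (10 and 8 unscaled). The share that fell was near the 23.2% of all genes. The ligand genes Fgf4, Fgf15, Fgf5 and Fgf17 rose, while Fgf7 and Fgf2, ligands made by fibroblasts, fell by at least 4.59-fold and 2.33-fold. Fgf17 had 13.42, 13.71 and 13.67 in IP20D-3 and 10.60, 8.15 and 10.88 in MEF. Spry1, a feedback inhibitor, fell 4.15-fold. Probe sets of Grb2 went opposite ways, so its fall of 0.44 on the log2 scale rests on the brighter probe set.

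The TGF-beta, Activin and BMP pathway was lower in IP20D-3 on balance: 7 of 34 measured members rose, 23 fell and 4 did not pass (median -1.01). The 4 largest falls by fitted change were of ligand, receptor and ligand-binding genes of the TGF-beta branch. Tgfb3 had 7.19, 8.09 and 6.74 in IP20D-3 and 17.61, 17.56 and 17.38 in MEF, at least 87.6-fold lower, and Tgfb2 fell at least 23.6-fold. The receptor gene Tgfbr2 fell at least 56.6-fold and Ltbp2, which binds latent ligand in the matrix, at least 42.1-fold. The 7 members that rose were the Activin and Nodal receptor genes Acvr2b (at least 20.7-fold) and Acvr1b (2.78-fold), the BMP target genes Id1 (5.26-fold) and Id2 (6.57-fold), the ligand gene Bmp7 (at least 1.55-fold) and the inhibitor genes Smad7 (2.33-fold) and Skil. Skil rose by 0.60, but with unscaled values its change was -0.04.

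Wnt pathway genes changed in both directions, with 10 of 34 higher, 12 lower and 12 not passing (8 and 17 unscaled). The share that rose was near the 29.9% of all genes, of which 23.2% fell. The secreted inhibitor gene Sfrp2 had 12.64, 13.01 and 13.02 in IP20D-3 and 5.44, 5.99 and 6.53 in MEF, at least 3.55-fold higher. The corepressor gene Tle4 rose 36.3-fold, the target gene Axin2 at least 4.94-fold and Tcf7l1, which represses Wnt targets in ES cells, 3.43-fold. Members that fell included the non-canonical ligand gene Wnt5a and the secreted inhibitor genes Dkk3 (both at least 15.8-fold) and Dkk2 (at least 15.4-fold) and the receptor gene Fzd1 (23.5-fold). Notch and Hippo pathway genes were as evenly split, with 11 of 26 higher, 12 lower and 3 not passing (9 and 15 unscaled). The Notch ligand genes Dll1 and Dll3 rose by at least 5.39-fold and 4.12-fold and Notch4 by at least 3.36-fold, whereas Jag1 fell 7.89-fold. Wwtr1 (Taz), a Hippo effector, had 14.60, 14.27 and 14.41 in IP20D-3 and 16.81, 16.84 and 16.83 in MEF, 5.28-fold lower.

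Genes for RNA-binding proteins of ES cells and the Dppa genes rose in 18 of 20 cases (median 5.56). Besides Lin28a, L1td1 had 18.55, 18.71 and 18.68 in IP20D-3 and 10.13, 8.62 and 7.66 in MEF, at least 192-fold higher. Esrp1, a splicing factor of epithelial cells, rose at least 28.8-fold. The 2 exceptions were Mbnl1 and Mbnl2, splicing regulators that repress ES cell exon choices, which fell 5.31-fold and 7.5-fold. Mbnl2 stood at 15.00, 14.65 and 14.83 in IP20D-3 and 17.74, 17.75 and 17.71 in MEF, although 1 of its 5 probe sets was higher in IP20D-3.

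DNA methylation genes rose in 9 of 15 cases, fell in 4 and did not pass in 2 (median 1.09). Dnmt3l, the cofactor of the de novo methyltransferases, had 18.23, 18.36 and 18.19 in IP20D-3 and 8.15, 8.30 and 9.35 in MEF, at least 147-fold higher. Dnmt3b rose at least 158-fold, Dnmt3a 13.2-fold and Tet1, which oxidises methylcytosine, 99.1-fold. The methyl-binding protein gene Mbd2 fell 5.74-fold, and Gadd45g and Gadd45b fell 4.57-fold and 1.64-fold. Of 31 Polycomb and chromatin regulators 25 rose, 4 fell and 2 did not pass (19 and 6 unscaled). Polycomb subunit genes went both ways. Cbx7 had 16.56, 16.39 and 16.47 in IP20D-3 and 9.83, 7.94 and 10.46 in MEF, at least 42.6-fold higher, and Bmi1 had 13.10, 13.07 and 13.17 in IP20D-3 and 16.12, 16.09 and 16.09 in MEF, 7.92-fold lower. Jarid2, which recruits Polycomb complex 2, rose 21.1-fold, the chromatin remodeller gene Chd7 rose at least 9.79-fold, and Hmga2 fell 4.3-fold.

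Collagen genes were far lower in IP20D-3. Of 21 collagen genes 20 fell and 1 rose (median -5.74), and 11 remained above background in IP20D-3, against 21 in MEF. The summed signal of the collagen list, given here and for later lists in units of 1000, was 179.2 to 196.1 per IP20D-3 array and 6066.1 to 6773.8 per MEF array. Col3a1 had 9.75, 10.24 and 9.07 in IP20D-3 and 19.82, 19.86 and 19.78 in MEF, at least 432-fold lower, and Col5a2 fell at least 366-fold. Col4a1, a basement membrane chain that pluripotent and endoderm cells can also make, stayed above background at 13.64, 13.55 and 13.64, against 19.38, 19.40 and 19.25 in MEF, 53.3-fold lower. The exception was Col18a1, the precursor of endostatin, at 17.15, 17.05 and 16.96 in IP20D-3 and 14.38, 14.37 and 14.44 in MEF, 6.32-fold higher. These are bulk samples on feeder fibroblasts, in which fewer cells of a type and less RNA per cell cannot be told apart.

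The Col3a1 promoter (RefSeq, GRCm38.p6, chr1:45311288-45311587, plus strand) is shown because Col3a1 was among the 15 largest falls. It held no CpG, and capitals mark the octamer ATGCAAAT 148 bases before the start and TATAAA 117 bases before it. Neither match says whether a factor binds there, and the octamer is also the motif more frequent among risen genes.
Col3a1: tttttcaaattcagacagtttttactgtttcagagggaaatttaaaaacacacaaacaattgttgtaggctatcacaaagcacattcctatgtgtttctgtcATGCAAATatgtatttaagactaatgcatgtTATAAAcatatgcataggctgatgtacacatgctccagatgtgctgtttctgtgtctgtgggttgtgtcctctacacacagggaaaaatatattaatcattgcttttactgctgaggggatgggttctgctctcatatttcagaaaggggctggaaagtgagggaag

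Of 38 other matrix and matrix-remodelling genes 37 fell, none rose and 1 did not pass (median -5.13). Tnc (tenascin C) had 11.53, 10.63 and 10.87 in IP20D-3 and 19.27, 19.35 and 19.08 in MEF, at least 259-fold lower. Lox, the enzyme that crosslinks collagen, fell 333-fold, Aspn at least 122-fold and the proteoglycan gene Dcn at least 16.03-fold. Fibroblast receptors, surface genes and cytokines fell in 29 of 34 cases, rose in 2 and did not pass in 3 (median -5.37), and their summed signal was 176.4 to 177.7 in IP20D-3 and 3917.4 to 4092.3 in MEF. Thy1, the surface glycoprotein used to sort fibroblasts out of reprogramming cultures, had 12.06, 11.99 and 12.59 in IP20D-3 and 18.54, 18.45 and 18.47 in MEF, 77.5-fold lower. Pdgfrb fell at least 138-fold, Igfbp7 197-fold, S100a4 at least 77.3-fold and Cd248 at least 65.5-fold. The 2 members that rose were Icam1, at 15.83 to 16.01 in IP20D-3 and 10.36, 10.71 and 10.62 in MEF (at least 29.6-fold higher), and Nt5e (at least 1.98-fold).

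Integrins and other matrix receptors changed in both directions: 13 of 20 fell, 5 rose and 2 did not pass (median -1.79). Over all genes 23.2% fell and 29.9% rose. Itgav and Itga8 fell 9.11-fold and at least 10.6-fold, and Itgb3 at least 2.97-fold. The laminin-binding chains rose, with Itga6 at 16.66, 16.57 and 16.66 in IP20D-3 and 14.34, 13.96 and 13.95 in MEF (5.86-fold higher) and Itga3 4.63-fold higher. Dag1 rose by 0.46, but its change was -0.17 with unscaled values.

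Transcription factors of mesenchyme went the same way as the matrix. Of 27 mesenchymal and epithelial-mesenchymal transition (EMT) factors 20 fell, none rose and 7 did not pass (median -3.52), and 8 remained above background in IP20D-3, against 25 in MEF. Snai2 (Slug), a repressor of epithelial genes, had 9.70, 6.98 and 10.26 in IP20D-3 and 17.52, 17.55 and 17.59 in MEF, at least 89.7-fold lower. Prrx1 fell at least 63.2-fold, Foxc2 at least 24.8-fold and Nr2f1 at least 7.88-fold. Of 31 HOX genes, which record position along the body axis, 26 fell, none rose and 5 did not pass (median -3.07), and 4 were above background in IP20D-3, against 26 in MEF. Hoxc8 had 7.87, 9.30 and 8.33 in IP20D-3 and 16.15, 15.90 and 16.16 in MEF, at least 32.2-fold lower, and Hoxb6 and Hoxc4 fell by at least 9.83-fold and 6.01-fold.

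Smooth muscle and actin cytoskeleton genes fell in 28 of 29 cases (median -3.18). Acta2, the smooth muscle actin of activated fibroblasts, had 14.22, 13.70 and 13.94 in IP20D-3 and 19.97, 20.06 and 19.86 in MEF, 64.4-fold lower. Actg2 fell at least 220-fold, the kinase gene Mylk at least 34.6-fold and Lmod1 at least 12.6-fold. The only member that rose was Srf, the factor that activates such genes through the CArG box, by 0.51 (SE 0.15), and its change was -0.13 without scaling. The CArG box (CC, 6 bases of A or T, then GG) was found in 16.7% of 24 promoters of the list, against 1.33% of the 10099 promoters of genes above background in either group. Most promoters of the list thus held no match, those of Acta2 and Cnn1 among them. The Myl9 promoter (RefSeq, GRCm38.p6, chr2:156775214-156775513, plus strand), of a myosin light chain gene of the list chosen after its sequence had been seen, is shown with its CArG match CCTAATAAGG 161 bases before the start and 3 GGGCGG matches on either strand in capitals.
Myl9: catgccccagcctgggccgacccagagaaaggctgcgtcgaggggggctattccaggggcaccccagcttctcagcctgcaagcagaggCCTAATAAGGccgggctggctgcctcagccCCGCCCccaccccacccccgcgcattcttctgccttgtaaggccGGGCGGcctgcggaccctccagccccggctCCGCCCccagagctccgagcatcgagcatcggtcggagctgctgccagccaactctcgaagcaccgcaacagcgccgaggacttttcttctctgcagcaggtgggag

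Epithelial junction and keratin genes rose in 25 of 30 cases, fell in 1 and did not pass in 4 (median 4.48), and 29 were above background in IP20D-3, against 9 in MEF. Cdh1 (E-cadherin), which holds ES colonies together, had 18.17, 18.24 and 18.09 in IP20D-3 and 9.44, 8.44 and 9.51 in MEF, at least 137-fold higher. Epcam rose at least 73.2-fold and Cldn6, a tight junction protein gene, at least 23.9-fold. Pkp2 fell by 0.41 on the log2 scale. Cdh1 thus rose where Cdh11 fell, with no overlap between the groups' arrays in either gene.

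**Figure D3:**
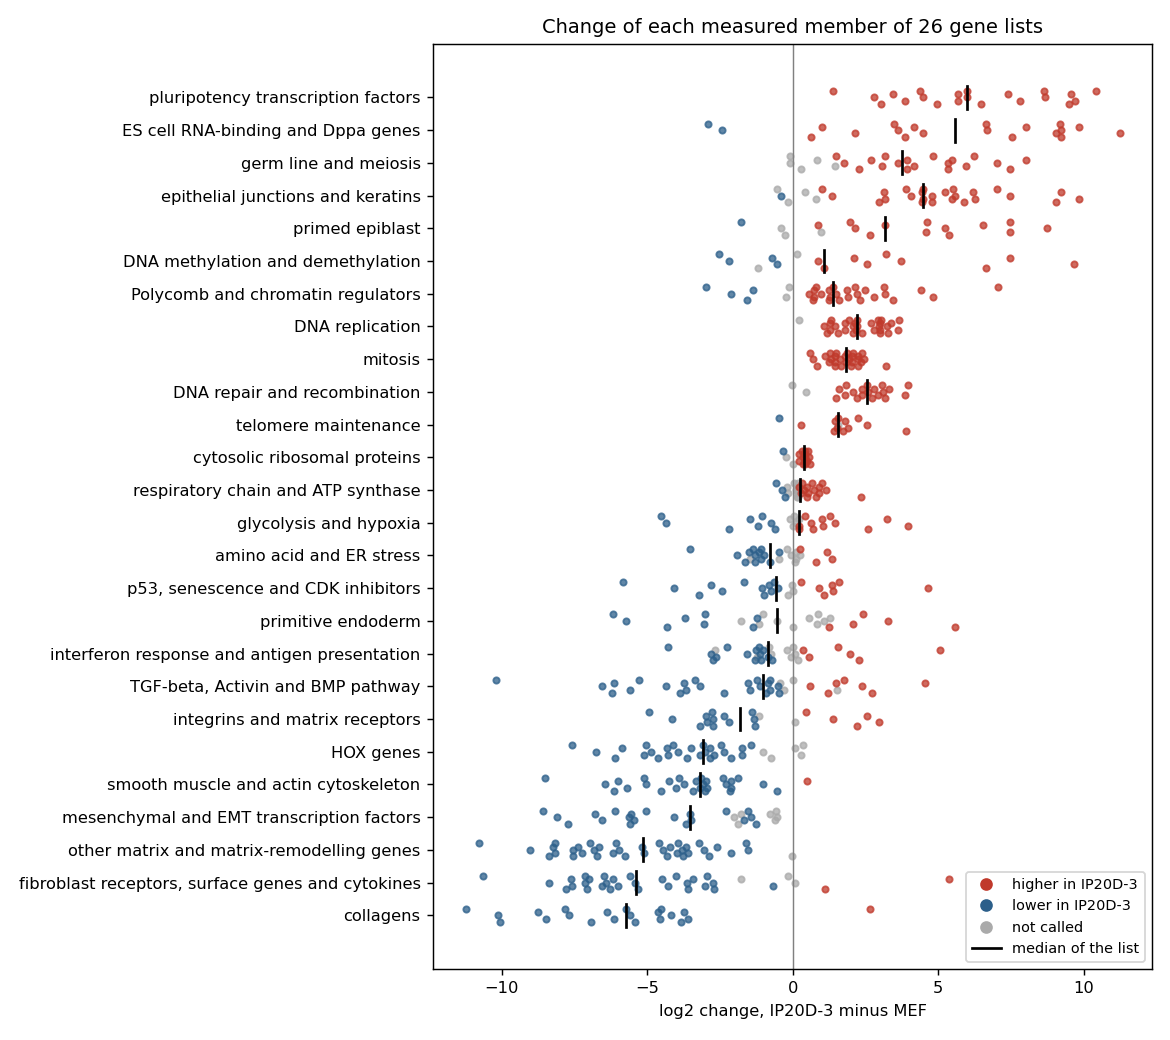
Log2 change, IP20D-3 minus MEF (horizontal axis), of each measured member of 26 of the gene lists, 1 list a row. Red points rose, blue points fell, grey points did not pass the test, and a black bar marks the median of the list. Members of the pluripotency, replication and mitosis lists lie right of 0 and nearly all collagen and matrix genes lie left of it.

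Replication and mitosis genes were higher in IP20D-3. Of 31 DNA replication genes 30 rose and 1 did not pass (median 2.19), and all 28 mitosis genes rose (median 1.82). Cdt1, which licenses replication origins, had 18.57, 18.55 and 18.50 in IP20D-3 and 14.94, 15.04 and 14.70 in MEF, 12.5-fold higher, and Mcm10, Lig1 and Mcm3 rose 12.4-fold, 10.3-fold and 9.57-fold. Espl1 (separase) rose 9.2-fold, Cenpf 5.41-fold, Kif11 5.22-fold and Top2a 5.04-fold. CCAAT was present in 65.4% of 26 replication and 73.9% of 23 mitosis promoters, against 38.4% of all promoters of genes above background. Cyclin and CDK genes rose in 14 of 22 cases, fell in 3 and did not pass in 5 (9 and 7 unscaled). Ccne1, the cyclin of S phase entry, had 16.79, 17.25 and 17.05 in IP20D-3 and 14.18, 14.46 and 14.05 in MEF, 6.98-fold higher. The G1 genes Ccnd2 and Cdk6 fell 31.8-fold and 3.59-fold and the pocket protein gene Rbl2 fell 3.16-fold. Ccnd2 stood at 13.67, 14.05 and 13.94 in IP20D-3, against 18.90, 18.91 and 18.81 in MEF, and all of its 7 probe sets were lower.

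Genes of the p53, senescence and CDK inhibitor list changed in both directions. Of 22 measured members 7 rose, 12 fell and 3 did not pass (5 and 16 unscaled, median -0.58). Among all genes 29.9% rose and 23.2% fell, so the share of this list that rose was near that of all genes. Cdkn1a (p21) had 14.16, 14.24 and 13.78 in IP20D-3 and 18.10, 18.27 and 18.01 in MEF, 16.8-fold lower. Cdkn2b (p15) had 10.84, 11.37 and 12.15 in IP20D-3 and 17.34, 17.20 and 17.31 in MEF, 57.0-fold lower, and Plk2 and Cdkn2c fell 9.29-fold and 7.03-fold. Members that rose included Perp (at least 13.2-fold), an adhesion gene and p53 target, and the inhibitor gene Cdkn1c (3.01-fold). DNA repair genes rose in 19 of 21 cases and fell in none (median 2.56), with Msh6, a mismatch repair gene, 15.4-fold higher, Ung 9.88-fold, Brca1 9.04-fold and Bard1 at least 1.4-fold. Msh6 had 18.63, 18.68 and 18.51 in IP20D-3 and 14.65, 14.65 and 14.70 in MEF. Of 13 telomere genes 11 rose, 1 fell (Terf2, by 0.47) and 1 did not pass (median 1.56). Rif1 rose 15.0-fold, the telomerase component genes Dkc1 and Nhp2 rose 5.91-fold and 4.76-fold, and Rtel1 rose 3.71-fold, although 1 of the 4 Rtel1 probe sets was lower.

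RNA levels of nuclear lamina genes changed in both directions. Lmna, which encodes the A-type lamins of differentiated cells, had 14.02, 13.79 and 13.71 in IP20D-3 and 17.68, 17.69 and 17.54 in MEF, 13.9-fold lower. The B-type lamin genes Lmnb2 and Lmnb1 rose 4.29-fold and 3.75-fold and the lamin B receptor gene Lbr 3.95-fold. Of the list's 12 genes 7 rose, 3 fell and 2 did not pass (5 and 5 unscaled), and the other 2 that fell were Syne1 (at least 10.3-fold) and Sun2 (3.38-fold). MicroRNA biogenesis genes rose in 9 of 14 cases with 1 lower and 4 not passing (3 and 4 unscaled). Drosha, which cuts primary microRNA transcripts, had 17.85, 17.67 and 17.67 in IP20D-3 and 15.78, 15.63 and 16.05 in MEF, 3.76-fold higher, and Tarbp2 rose 2.69-fold.

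The direction of several lists of metabolic genes depended on the scale. Glycolysis and hypoxia genes rose in 12 of 25 cases, fell in 8 and did not pass in 5, but 7 were higher and 14 lower without scaling. Ldhb had 17.44, 16.99 and 17.36 in IP20D-3 and 13.83, 14.15 and 14.15 in MEF, 9.35-fold higher, and of the lactate transporter genes Slc16a1 rose 6.05-fold and Slc16a3 fell 2.78-fold. Hk2 rose 2.75-fold and Hk1 fell 1.68-fold. Of the oxygen-responsive factors Epas1 rose 15.6-fold and Hif1a fell 2.09-fold. The prolyl hydroxylases of collagen, P4ha1 and P4ha2, fell 20.3-fold and 23.2-fold, and Vegfa fell 4.56-fold.

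Respiratory chain and ATP synthase genes rose in 15 of 28 cases and fell in 3 (median 0.25), but 3 were higher and 17 lower without scaling, so no direction is given for the list. Its largest change was of Cox7a1, a cytochrome oxidase subunit gene, at 13.18, 13.41 and 13.42 in IP20D-3 and 11.13, 11.09 and 10.80 in MEF, at least 4.73-fold higher. Cytosolic ribosomal protein genes likewise rose in 15 of 18 cases and fell in 1 (median 0.40), against 9 higher and 3 lower with quantile normalization and 0 higher and 8 lower without scaling. Folate, glycine and nucleotide metabolism genes rose in 15 of 21 cases, fell in 2 and did not pass in 4 (12 and 7 unscaled, median 1.19). Gldc, the glycine decarboxylase that feeds folate metabolism, had 17.13, 17.07 and 16.95 in IP20D-3 and 7.24, 9.46 and 9.33 in MEF, at least 63.4-fold higher. Shmt1 rose 18.8-fold and Mthfd1 9.14-fold, while the serine synthesis genes Phgdh and Psph fell 1.39-fold and 1.26-fold.

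Cholesterol and fatty acid synthesis genes rose in 7 of 23 cases, fell in 11 and did not pass in 5, but 1 was higher and 16 lower without scaling. The share of this list that rose was near the 29.9% of all genes, of which 23.2% fell. The desaturase genes Scd2 and Scd1 fell 8.64-fold and 6.24-fold, with Scd2 at 15.75, 16.48 and 16.15 in IP20D-3 and 19.28, 19.28 and 19.16 in MEF. The elongase gene Elovl6 rose 5.52-fold. Of 25 genes of the amino acid and ER stress list, 13 fell, 4 rose and 8 did not pass (22 lower and 1 higher unscaled). Chaperone and secretory genes fell, with Hspa5 (BiP) 2.83-fold and Xbp1 3.12-fold lower, and Atf5 fell 11.6-fold, whereas Sesn2 rose 2.53-fold and Chac1 1.73-fold. Lysosomal and cathepsin genes rose in 6 of 23 cases, a share near that of all genes, fell in 13 and did not pass in 4 (2 and 17 unscaled). The proteases Ctss, Ctsk and Ctsh fell by at least 11.4-fold, 21.4-fold and 17.4-fold, while the channel gene Mcoln1 and Tfeb, the factor that controls lysosomal genes, rose 2.37-fold and 2.14-fold.

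Interferon response and antigen presentation genes fell in 14 of 29 cases, rose in 6 and did not pass in 9 (4 higher and 21 lower unscaled). B2m, the light chain of MHC class I, had 14.90, 14.63 and 14.78 in IP20D-3 and 19.05, 18.99 and 19.12 in MEF, 19.5-fold lower. The receptor subunit gene Ifnar2 fell 6.92-fold. Ifitm1, also a marker of germ cell precursors, went the other way at 17.89, 18.07 and 17.97 in IP20D-3 and 12.60, 12.94 and 13.15 in MEF, 33.8-fold higher. Immediate early and AP-1 genes fell in 13 of 23 cases, rose in 5 and did not pass in 5 (median -0.66). Ier3, Jun and Egr2 fell 9.21-fold, 3.76-fold and at least 5.81-fold, and Klf10, Ier2 and Dusp1 rose 4.95-fold, 3.55-fold and 2.47-fold.

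Germ line and meiosis genes were higher in IP20D-3: 19 of 24 rose, none fell and 5 did not pass (median 3.76), and 19 were above background in IP20D-3, against 1 in MEF. Ddx4 (Vasa), an RNA helicase of germ cells, had 13.80, 13.91 and 13.85 in IP20D-3 and 4.83, 6.28 and 6.44 in MEF, at least 6.93-fold higher. Rnf17, a component of germ cell granules, had 16.61, 16.43 and 16.48 in IP20D-3 and 8.98, 9.56 and 9.89 in MEF, at least 43.5-fold higher. Sycp3, which forms the axes of meiotic chromosomes, rose at least 22.6-fold and Mael at least 11.3-fold. In Ddx4 and Rnf17 the IP20D-3 arrays lay close together and every MEF array was below background. Promoters of the list had a median of 20 CpG in 300 bases, against 21 over genes above background in either group and 13 over the 299 genes with a rise of at least 16-fold. The Ddx4 promoter (RefSeq, GRCm38.p6, chr13:112652261-112652560, minus strand) is shown as that of a germ cell gene with every MEF array below background. It held 38 CpG, and capitals mark 2 matches each to CCAAT and GGGCGG on either strand.
Ddx4: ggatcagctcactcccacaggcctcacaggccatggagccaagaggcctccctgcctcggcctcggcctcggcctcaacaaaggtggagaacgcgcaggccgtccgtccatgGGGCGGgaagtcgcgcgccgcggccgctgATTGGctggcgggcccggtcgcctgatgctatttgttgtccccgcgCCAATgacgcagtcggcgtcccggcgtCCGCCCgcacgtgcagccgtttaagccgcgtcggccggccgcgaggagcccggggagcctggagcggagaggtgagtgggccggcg

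Of the 2-cell-like genes, which mark a rare totipotent-like state of ES cultures, 9 were measured, of which 2 rose, 1 fell and 6 did not pass the test. Tcstv1 rose with both groups below background, and Usp17la rose at least 1.21-fold, but it belongs to a multicopy family whose members a probe set may not separate. The member that fell was Gata2, a factor of blood and trophoblast cells as well, 1.87-fold lower.

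Markers of other early lineages were read as a check on differentiated cells in the IP20D-3 cultures. Primed epiblast genes rose in 13 of 17 cases, fell in 1 and did not pass in 3 (median 3.16). Otx2, a factor of the epiblast and forebrain, had 14.29, 14.68 and 14.51 in IP20D-3 and 5.54, 5.73 and 6.02 in MEF, at least 10.8-fold higher. Pou3f1 rose at least 18.5-fold, and Fgf5, the classic marker of the primed epiblast, was at 10.56, 12.26 and 11.82 in IP20D-3, against 6.21, 7.57 and 7.07 in MEF. Fgf5 thus lay near background, with 1 of the 3 IP20D-3 arrays below it. Sox4 fell 3.46-fold.

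Primitive endoderm genes fell in 8 of 23 cases, rose in 5 and did not pass in 10 (median -0.53), with a summed signal of 771.7 to 940.1 in IP20D-3 and 2008.3 to 2179.3 in MEF. Among all genes 23.2% fell and 29.9% rose. Pdgfra had 9.86, 7.57 and 7.39 in IP20D-3 and 14.46, 14.02 and 14.82 in MEF, at least 10.3-fold lower, and Dab2, an endocytic adaptor gene, fell 12.9-fold. Apoe had 19.26, 18.81 and 18.97 in IP20D-3 and 13.77, 13.22 and 13.34 in MEF, 47.6-fold higher, and made up most of the list's signal in IP20D-3. Primitive streak and mesoderm genes rose in 8 of 23 cases, fell in 1 and did not pass in 14, with a summed signal of 49.4 to 62.9 in IP20D-3 and 29.0 to 35.8 in MEF. Eomes had 10.97, 12.54 and 12.17 in IP20D-3 and 7.79, 8.50 and 7.54 in MEF, at least 1.78-fold higher.

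Neural genes rose in 6 of 22 cases, fell in 5 (3 without MEF replicate 1 or 2) and did not pass in 11, with a summed signal of 130.5 to 136.5 in IP20D-3 and 312.3 to 369.8 in MEF. Both shares were near those of all genes, 29.9% higher and 23.2% lower. Olig2 and Mapt rose by at least 6.49-fold and 10.2-fold, and Ncam1 had 11.85, 12.02 and 11.79 in IP20D-3 and 17.68, 17.53 and 17.86 in MEF, 55.8-fold lower. Trophoblast genes rose in 14 of 21 cases, fell in 1 and did not pass in 6 (median 2.32), with a summed signal of 195.2 to 226.0 in IP20D-3 and 49.8 to 58.5 in MEF. Tfap2c, which ES cells and germ cell precursors also express, had 15.83, 15.85 and 15.92 in IP20D-3 and 8.51, 5.74 and 7.85 in MEF, at least 27.9-fold higher. Rhox6 and Plet1 rose at least 8.27-fold and 3.62-fold. Muscle, cartilage, bone and fat markers rose in 1 of 22 cases (Alpl, shared with pluripotent cells, and 2 without MEF replicate 1), fell in 5 and did not pass in 16, and Acta1, the skeletal muscle actin, fell 19.15-fold.

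Macrophage, blood and endothelial markers fell in 11 of 23 cases, rose in 6 and did not pass in 6 (median -1.49), with 7 above background in IP20D-3 and 14 in MEF. Over all genes 23.2% fell and 29.9% rose, so the share of these markers that rose was near that of all genes. The complement genes of macrophages were the clearest. C1qa had 7.002, 7.01 and 8.13 in IP20D-3 and 13.92, 13.78 and 13.75 in MEF, at least 6.75-fold lower, and C1qb and C1qc fell by at least 6.5-fold and 4.38-fold. The leukocyte gene Ptprc (CD45) fell at least 1.58-fold. The summed signal of the list was 83.7 to 118.1 in IP20D-3 and 136.4 to 146.6 in MEF, and the part of such cells in the other MEF values was not tested. Genes of the list that rose were Pecam1 (at least 11.6-fold), which ES cells express, Tek (at least 3.31-fold), Vwf (at least 1.07-fold), Cldn5 (at least 1.19-fold), Cd68 (2.51-fold) and Laptm5 (5.12-fold). The probe sets of Laptm5 disagreed, with 3 of 5 higher and 1 lower.

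Imprinted genes are expressed from a single parental chromosome under the control of methylation laid down in the germ line, and those of the Dlk1-Dio3 cluster on chromosome 12 were uniformly low in IP20D-3. All 4 measured members fell: Meg3, Rian and Mirg, noncoding RNAs of the maternal chromosome, and Dlk1, a protein gene of the paternal one. Meg3 (Gtl2) had 13.44, 13.31 and 13.36 in IP20D-3 and 18.30, 18.39 and 18.24 in MEF, 30.8-fold lower (change -4.94, SE 0.12, adjusted p = 1.8e-16). Rian had 9.11, 9.89 and 10.70 in IP20D-3 and 14.57, 14.62 and 14.74 in MEF, at least 11.9-fold lower, and lay below background on every IP20D-3 array. Mirg had 11.67, 11.38 and 11.51 in IP20D-3 and 14.71, 14.73 and 14.93 in MEF, 9.66-fold lower. The probe sets agreed, since all 11 of Meg3 (changes of -7.12 to -1.07), all 4 of Rian and both of Mirg were lower. Dlk1 had 11.995, 12.07 and 12.54 in IP20D-3 and 14.21, 14.43 and 14.31 in MEF, 4.32-fold lower, on 1 of its 2 probe sets, and the other showed a change of -0.33 that did not pass.

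Mean levels of Meg3, Rian and Mirg in the other pluripotent lines lay between IP20D-3 and MEF. Mean log2 levels of Meg3 were 13.37 in IP20D-3, 17.29 in IP14D-1, 16.28 in IP14D-101, 16.39 in CL11 and 18.31 in MEF. Rian averaged 9.90 in IP20D-3, 14.20 in IP14D-1, 13.67 in IP14D-101, 13.69 in CL11 and 14.64 in MEF. The direct differences of IP20D-3 from CL11 were -3.02 for Meg3 (SE 0.12, adjusted p = 2.2e-11), -3.79 for Rian (SE 0.27, adjusted p = 2.2e-08) and -2.62 for Mirg (SE 0.16, adjusted p = 4.1e-09), and each RNA was also lower than in IP14D-1 and IP14D-101. No IP20D-3 array overlapped any array of another line for these 3 RNAs, each read from its brightest probe set. Against CL11, 8 of the 11 Meg3 probe sets were lower at the threshold, as were all 4 of Rian and both of Mirg. Dlk1 did not pass the test against CL11 (difference -0.22, SE 0.20, adjusted p = 0.56) but was lower than in IP14D-1 (-1.60) and IP14D-101 (-1.29). The Meg3 promoter (RefSeq, GRCm38.p6, chr12:109540746-109541045, plus strand), near which a differentially methylated region of the cluster is known, is shown with capitals at CCAAT 100 bases before the start and at overlapping TATAAA matches of both strands that begin 29 and 25 bases before it. It held 13 CpG.
Meg3: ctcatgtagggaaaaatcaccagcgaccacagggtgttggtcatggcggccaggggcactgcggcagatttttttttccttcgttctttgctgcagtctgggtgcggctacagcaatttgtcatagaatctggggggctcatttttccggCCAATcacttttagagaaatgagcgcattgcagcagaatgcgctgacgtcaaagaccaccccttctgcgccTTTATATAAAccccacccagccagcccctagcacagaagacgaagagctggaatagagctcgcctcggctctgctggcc

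Other imprinted genes had no common direction: 15 of 33 rose, 11 fell and 7 did not pass (10 and 15 unscaled). Phlda2, a growth-restraining gene of the placenta, had 16.88, 16.86 and 17.08 in IP20D-3 and 7.70, 7.21 and 9.27 in MEF, at least 58.8-fold higher. Igf2, a fetal growth factor gene, had 13.41, 13.08 and 13.51 in IP20D-3 and 18.11, 17.99 and 17.95 in MEF, 25.7-fold lower. The paternally expressed genes Ndn and Sgce fell 5.29-fold and 4.28-fold, the antisense RNA gene Airn at least 6.5-fold and its target Igf2r 2.79-fold, while Peg10, Ascl2 and Snrpn rose by at least 3.42-fold, 3.20-fold and 1.51-fold.

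Y-linked genes and Xist differed between the groups. Of 15 sex-linked genes measured, 6 rose, 2 fell and 7 did not pass (4 and 3 unscaled), a share near the 53.1% of all genes, and 1 fell when IP20D-3 replicate 2, MEF replicate 1 or MEF replicate 2 was left out. Eif2s3y, on the Y chromosome, had 15.74, 15.63 and 15.69 in IP20D-3 and 8.48, 6.83 and 9.57 in MEF, at least 24.7-fold higher, and Uty, also on the Y, rose at least 6.16-fold. Xist, the RNA that coats the inactive X chromosome of female cells, had 13.67, 13.62 and 13.45 in IP20D-3 and 16.98, 17.11 and 16.68 in MEF, 10.2-fold lower. All 3 Xist probe sets fell (-8.93 to -3.35), but only the one read for the gene, of a kind marked as cross-hybridising, stayed above background in IP20D-3. The others averaged 7.04 and 8.92 in IP20D-3, below background, and 15.97 and 12.51 in MEF. The 10.2-fold difference is therefore that of the brightest probe set alone. The IP20D-3 arrays thus carried Y-linked signal that the MEF arrays did not, and the labels give no sex for either group. The median change was 0.10 over the 425 X-linked genes, the same as over all genes. The X-linked genes Rlim and Kdm6a rose 2.71-fold and 2.21-fold. Chromosome medians among the autosomes ran from -0.08 on chromosome 1 to 0.34 on chromosome 17. Against CL11 the lowest chromosome median of IP20D-3 was -0.22, on chromosome 6. There its median was -0.02 against IP14D-1 and 0.02 against IP14D-101. The chromosome 6 median against MEF was 0.15 for CL11 and -0.05 for IP20D-3.

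Reference genes used for normalization did not hold a constant level. Of 10 measured, 6 rose, 2 fell and 2 did not pass (1 and 4 unscaled). Polr2a rose 2.76-fold and Hprt 1.68-fold, and Gusb fell 2.2-fold.

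Against the other pluripotent lines, Pou5f1, Sox2 and Nanog of the core circuit did not pass the test, while 5 of 21 pluripotency factors differed from CL11, 2 higher and 3 lower. Pou5f1 differed from CL11 by -0.07 (SE 0.23, adjusted p = 0.91), Sox2 by 0.30 (SE 0.12, adjusted p = 0.099) and Nanog by -0.24 (SE 0.13, adjusted p = 0.28), and none of the 3 passed the test against IP14D-1 or IP14D-101. Klf4 and Myc did pass, each lower in IP20D-3 than in every other line. Klf4 had 17.23, 16.90 and 16.93 in IP20D-3, against 17.80, 17.71 and 17.61 in IP14D-1, 17.85, 17.92 and 17.67 in IP14D-101 and 17.90, 17.77 and 17.70 in CL11, with differences of -0.69 from IP14D-1, -0.79 from IP14D-101 and -0.77 from CL11. Myc had 13.77, 14.76 and 14.10 in IP20D-3, against 15.05, 14.80 and 15.17 in IP14D-1, 15.10, 15.19 and 15.33 in IP14D-101 and 15.05, 15.43 and 15.09 in CL11, with differences of -0.80 from IP14D-1, -0.99 from IP14D-101 and -0.98 from CL11. The highest Myc array of IP20D-3 lay just below the lowest of IP14D-1, and Myc no longer differed from all 3 lines without IP20D-3 replicate 1 or 3 or IP14D-1 replicate 1 or 3, with arrays scaled to the same median, or without the trend. Cdkn1a was lower in IP20D-3 by 1.08 than in CL11, by 1.17 than in IP14D-1 and by 1.08 than in IP14D-101.

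Over all genes IP20D-3 differed from CL11 for 3549 genes (19.5%; 9.45% higher and 10.1% lower), from IP14D-1 for 1346 (7.4%; 3.87% higher and 3.53% lower) and from IP14D-101 for 4002 (22%; 10.3% higher and 11.7% lower). It was above each of the other 3 lines for 181 genes (0.995%) and below each for 171 (0.94%). Of the 181, 142 were also higher than in MEF and 18 lower, and of the 171, 36 were higher than in MEF and 119 lower. Without scaling these counts became 16 and 1144, and with arrays scaled to the same median they were 93 and 107. Genes above each line numbered 90 without IP20D-3 replicate 1, 118 without IP20D-3 replicate 3 and 117 without IP14D-1 replicate 3, and 110 lay below each without IP14D-1 replicate 1. The count against IP14D-1 was 818 without IP20D-3 replicate 1, 896 without IP20D-3 replicate 3, 784 without IP14D-1 replicate 1 and 787 without IP14D-1 replicate 2.

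The genes shown were chosen after their values had been seen, as the first 12 in each direction when genes were ranked by the smallest of their 3 differences from the other lines. Predicted or clone-named genes were left out, as were lower genes with another line below background and higher genes with IP20D-3 below it. Cap1, which recycles actin monomers, had 11.66, 11.54 and 10.54 in IP20D-3, against 15.79, 15.90 and 15.79 in IP14D-1, 15.49, 15.53 and 15.71 in IP14D-101, 15.47, 15.60 and 15.57 in CL11 and 16.81, 16.84 and 16.80 in MEF. Its difference from CL11 was -4.30 (SE 0.19, adjusted p = 6.7e-11), and both of its probe sets were lower. Tmem87a averaged 9.56 in IP20D-3, 13.81 in IP14D-1, 13.67 in IP14D-101, 13.54 in CL11 and 13.80 in MEF, and lay below background in IP20D-3 alone. Ccnb1ip1, which acts in meiotic crossing over, averaged 11.47 in IP20D-3, 14.54 in IP14D-1, 14.80 in IP14D-101, 14.94 in CL11 and 9.90 in MEF, so it was well above background in every pluripotent line but IP20D-3. Rbm45, Tgfbr3, Flrt3, Ust, Clec16a and Dnah8 were also lower than in each other line. Of these, Dnah8 no longer passed against all 3 lines without IP20D-3 replicate 2 or 3 or CL11 replicate 3, Flrt3 without IP14D-1 replicate 1 or 2, Clec16a without IP14D-1 replicate 1 or 3 and Ust without IP14D-1 replicate 2, and neither Flrt3 nor Clec16a passed without the trend in the fit.

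The clone-named gene AI662270 averaged 14.72 in IP20D-3, 10.73 in IP14D-1, 9.50 in IP14D-101, 11.03 in CL11 and 10.16 in MEF. Named genes higher than in each other line were Usp26, Acss1, S100a13, Patl2, Rhox9, Erdr1, Aqp3, Plekha4, Spata5l1, Pmel, Mir1931 and Dppa3. Usp26, an X-linked deubiquitinase gene of the testis, had 13.29, 13.11 and 13.02 in IP20D-3, against 9.31, 10.10 and 10.34 in IP14D-1, 9.79, 9.16 and 7.89 in IP14D-101, 11.04, 10.10 and 9.31 in CL11 and 8.19, 9.27 and 9.53 in MEF. It was above background in IP20D-3 only. S100a13 averaged 15.08 in IP20D-3, 13.36 in IP14D-1, 11.75 in IP14D-101, 11.95 in CL11 and 14.83 in MEF, and its change from MEF (0.25, adjusted p = 0.44) did not pass. Dppa3 (Stella), which protects methylation in the early embryo, averaged 16.18 in IP20D-3, 15.11 in IP14D-1, 15.08 in IP14D-101, 15.13 in CL11 and 9.51 in MEF. Dppa3 no longer differed from all 3 lines when any 1 array of IP20D-3 or IP14D-1, or CL11 replicate 2, was left out, nor with arrays scaled to the same median, unscaled values or no trend. Spata5l1 was lost without IP20D-3 replicate 1 or 2, IP14D-1 replicate 3 or IP14D-101 replicate 3 and with unscaled values. Mir1931 was lost without IP20D-3 replicate 2 or 3, IP14D-1 replicate 1 or 2, the trend or scaling.

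**Figure D4:**
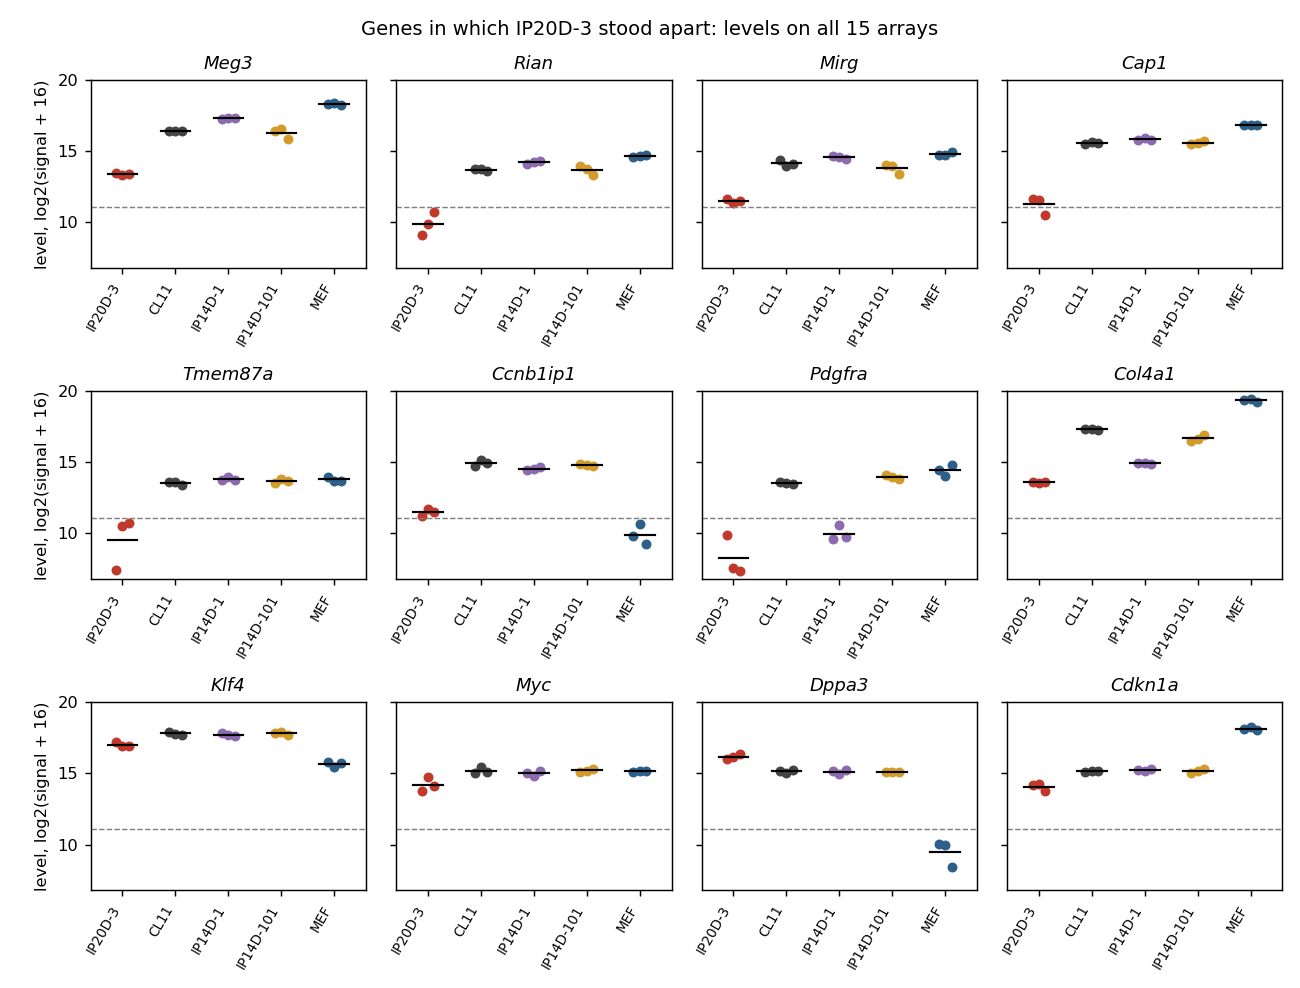
Log2 levels (vertical axis) on each array of IP20D-3, CL11, IP14D-1, IP14D-101 and MEF, in that order from left to right, for 12 genes in which IP20D-3 differed from each other line, with bars at group means and a dashed line at the background level of 11.06. In the panels of Meg3, Rian, Mirg, Cap1 and Tmem87a the IP20D-3 points lie below those of every other group, MEF included, whereas in Ccnb1ip1 and Dppa3 the MEF points are the lowest.

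Members that differed from CL11 were counted list by list. Most did so in several lists, such as 9 of 13 Myc family and nuclear receptor genes, 15 of 23 lysosomal, 14 of 22 p53 and senescence and 16 of 25 glycolysis and hypoxia genes. Of 25 amino acid and ER stress genes 22 differed from CL11, 16 higher and 6 lower, against 19.5% of all genes. That share also counts the 5625 genes above background in neither IP20D-3 nor MEF, whereas all 25 members were above it in either group. In other lists few differed, such as 2 of 21 DNA repair, 2 of 27 mesenchymal and EMT factor and 3 of 31 HOX genes. Chac1 had a difference of 2.68 from CL11 and 2.71 from IP14D-101 but -0.61 from IP14D-1, and Hspa5 one of -0.88 from CL11. Primitive endoderm genes differed in 18 of 23 cases, 16 of them lower in IP20D-3. Col4a1 averaged 13.61 in IP20D-3, 14.93 in IP14D-1, 16.68 in IP14D-101, 17.30 in CL11 and 19.34 in MEF, and the 3 IP20D-3 arrays lay below all others. The list's summed signal was 771.7 to 940.1 in IP20D-3, 693.3 to 735.5 in IP14D-1, 869.1 to 1024.1 in IP14D-101, 1371.9 to 1411.3 in CL11 and 2008.3 to 2179.3 in MEF. Primed epiblast genes differed from CL11 in 12 of 17 cases, all higher in IP20D-3, with Otx2 higher by 1.11 and Fgf5 by 3.40, but neither differed at the threshold from IP14D-1.

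Fibroblast genes, which feeder cells also express, were low in IP20D-3. Col1a1 stood at 7.27, 9.37 and 8.92 in IP20D-3, at 12.29, 12.18 and 12.38 in IP14D-1, at 10.56, 9.01 and 11.01 in IP14D-101, at 8.67, 7.64 and 9.69 in CL11 and at 19.78, 19.87 and 19.58 in MEF. Only IP14D-1 lay above background among the pluripotent lines, and the difference of IP20D-3 from IP14D-1 in Col1a1 was -3.76 (adjusted p = 0.00033). The summed collagen signal was 179.2 to 196.1 in IP20D-3, 243.6 to 265.4 in IP14D-1, 294.4 to 378.0 in IP14D-101 and 360.3 to 381.6 in CL11. That of fibroblast receptors, surface genes and cytokines was 176.4 to 177.7 in IP20D-3, 246.0 to 255.9 in IP14D-1, 159.8 to 177.3 in IP14D-101 and 165.1 to 172.0 in CL11. The collagen sum of IP20D-3 was thus below that of each other line, and the receptor sum was not. Of the 21 collagens only 3 differed from CL11, 1 higher and 2 lower. The 2 lower were Col4a1, which pluripotent cells can make, and Col4a2. Mean levels in IP20D-3 and CL11 were 13.61 and 17.30 for Col4a1 and 12.14 and 15.81 for Col4a2. The lower collagen sum against CL11 is therefore not a result shared by the other collagens.

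Promoter sequence features of the changed genes were compared as a description. Of the array genes 14368 had a RefSeq promoter, and 10099 of them were above background in either group. The octamer ATGCAAAT, the Oct4 site, was present on either strand in 5.02% of 299 promoters of genes with a fitted rise of at least 16-fold, in 1.52% of 330 promoters of genes with a fitted fall of that size, and in 1.34% of the 10099. The CArG box was present in 0.669% of the risen, 3.33% of the fallen and 1.33% of all. TATAAA was present in 11.04% of the risen, 15.5% of the fallen and 7.30% of all, TGANTCA, the AP-1 site, in 6.35%, 8.48% and 4.88%, and GGGCGG in 54.8%, 54.5% and 64.9%. The median number of CpG was 13 in both the risen and the fallen promoters, against 21 over all.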

How the data were processed

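Total RNA extracted with Trizol was hybridised to Affymetrix mouse expression arrays. Per the submitters' processing notes, the deposited values are signal intensities from MAS5 in Affymetrix Expression Console, with no version given, and the annotation used at that step is not given in the sources used here. The intensity table was deposited for 45101 probe sets on 15 arrays, and 64 control probe sets were left out. Each array was scaled to the same 2% trimmed mean and log2(signal + 16) was taken. All 5 groups of 3 arrays, assigned by array title, were fitted together with limma 3.58.1 in R 4.3.3 (lmFit, and eBayes with a trend on mean expression), and p-values were adjusted by Benjamini-Hochberg over 45037 probe sets, with 0.05 as threshold. Tables and figures were made with Python 3.11.15, pandas 2.3.3, numpy 2.4.6 and matplotlib 3.10.9.

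Of the probe sets, 34945 had 1 gene symbol in the platform annotation, 932 several and 9160 none, and only the first kind was named. Background was the 95th percentile of the signals of 43 olfactory receptor probe sets (38 genes), a signal of 2124. "At least" folds set the brighter group's mean against the mean of the dimmer group's arrays, with arrays below this background raised to it. With no read counts, the number of arrays limits the precision. The replicate numbers did not pair the samples, since no correlation of deviations between IP20D-3 and MEF arrays was above 0.022 and that of the same-numbered pairs was 0.0013, -0.0096 and -0.024.

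The 49 gene lists held 1201 members, of which 1108 were measured. The members and lists were chosen with earlier results of these data known. Genes named against MEF were up to 4 per list in each direction by size of change and the 15 largest changes each way. Those set against the other lines were named for passing the test against each line, or were list members singled out after their values were seen. Alternatives were other scalings (the same median, quantiles, none), pseudocounts of 1 and 1000, a filter for probe sets above background on 3 or more arrays, other choices of probe sets or arrays in the fit, no trend, a replicate block and leaving out each array in turn. Promoters came from RefSeq, where 14368 array genes matched by gene identifier.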

Additional observations from a re-analysis of the deposited data

Results flagged for a closer look

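In 29 of the genes described from the lists, the change from MEF differed between IP20D-3 and each of the 3 other pluripotent lines, in the same direction each time, by limma's test of the difference between the lines. Values here are log2 differences, IP20D-3 minus CL11. In the Dlk1-Dio3 cluster Rian differed by -3.79, Meg3 by -3.02 and Mirg by -2.62. Among matrix, receptor and endoderm genes the differences were -5.29 for Pdgfra, -3.69 for Col4a1, -3.63 for Dab2, -2.28 for P4ha2, -1.31 for Itga3, -1.05 for Tgfbr2 and -1.01 for Ncam1, and 1.26 for Apoe, 0.62 for Icam1 and 1.31 for the Wnt receptor gene Fzd7. Cell cycle inhibitor and stress genes gave -1.08 for Cdkn1a, -0.79 for Cdkn2b, -0.99 for Plk2 and 0.75 for Gadd45b. Transcription and methylation genes gave -0.98 for Myc, -0.77 for Klf4, -0.77 for Mbd2 and -1.39 for Eomes. Metabolic, lysosomal and other genes gave 0.89 for Ldhb, 2.07 for Hexa, -0.56 for Cycs, -0.56 for Scd2, 0.29 for Rplp0, 0.55 for Wnt7b, 0.44 for Ifitm1 and 0.78 for Igf2r. Of the 29, between 15 and 27 still differed from every other line under the single alternatives. Pdgfra lay below background in IP14D-1 too (9.61, 10.58 and 9.76), overlapping IP20D-3 (9.86, 7.57 and 7.39). Its difference from IP14D-1 was -1.71 (limma, adjusted p = 0.038). Pdgfra was lost with quantile normalization, the higher pseudocount or no trend. It was also lost without IP20D-3 replicate 2 or 3 or any array of CL11 or IP14D-1. It was kept under the other alternatives run for the lines. Eomes was lost with the same median, no trend or the replicate block. It was also lost without IP20D-3 or IP14D-1 replicate 1 or 3, or any array of CL11 or IP14D-101. Wnt7b was lost with the same median, quantile normalization, no scaling or no trend. It was also lost without IP20D-3 replicate 1 or 3 or any array of CL11 or IP14D-1. Other genes of the 29 were lost under single alternatives too. No group had enough arrays for a check of single outlying samples.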

How the results depend on the processing

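The number of genes that differed between IP20D-3 and MEF was 9107 to 9868 under every alternative run. With the values as deposited and no scaling, 3054 genes were higher in IP20D-3 and 6571 lower, and 1958 and 4788 by at least 2-fold. The trimmed mean differed 1.83-fold between the highest and the lowest array before scaling, so directions of small changes rest on the scaling. Of the 354 named genes, 317 kept direction and call without scaling and at least 343 under each other alternative. Those that turned round without scaling were Mvd (-0.029), Skil (-0.041), Rplp0 (-0.042), Npc1 (-0.058), Rpl8 (-0.079), Bst2 (-0.081), Rpl4 (-0.11), Srf (-0.13), Rps4x (-0.15), Neu1 (-0.15), Acaca (-0.15), Dag1 (-0.17), Acly (-0.19), Hexa (-0.27), Psmb10 (-0.29), Pmaip1 (-0.36) and Atf4 (-0.40). Where probe sets not marked as cross-hybridising stood for a gene, Laptm5 (-2.35) and Rtel1 (-3.25) turned round. With a replicate block, 9591 genes changed, 9524 of them also without it, and the block left 3428, 1230 and 3907 genes different from CL11, IP14D-1 and IP14D-101, 164 above each line and 151 below each. Leaving out 1 array of IP20D-3 or MEF left 9107 to 9244 genes changed, 5147 to 5298 higher and 3923 to 4035 lower, 3337 to 3433 and 2693 to 2777 by at least 2-fold, and 18294 to 18618 probe sets. The alternatives for IP20D-3 against the other lines were chosen after seeing the data. Genes above and below each line numbered 93 and 107 with arrays scaled to the same median, 16 and 1144 without scaling, and 73 and 76 without the trend. IP14D-1 differed for 6640 genes without scaling and 539 without the trend. Before scaling the trimmed means were 15396 to 18094 on the IP14D-1 arrays and 11416 to 11917 on the IP20D-3 arrays. Leaving out 1 array gave 2653 to 4165 genes against CL11, 784 to 1897 against IP14D-1, 3018 to 3935 against IP14D-101, 90 to 234 above each line and 110 to 214 below each. The cause of these shifts was not tested. Signal over background limits the rest: a gene below background in both groups has no fold.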
